A study of Mus musculus with 12 samples.

Results

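The granule proteases of killer lymphocytes were followed on 12 arrays of mouse colorectal cancer (CRC) tissue: the granzymes Gzma, Gzmb, Gzmc, Gzmd, Gzme, Gzmf, Gzmg and Gzmk, the pore-forming protein perforin (Prf1) and cathepsin W (Ctsw). These 10 genes were selected on measured values, because granzymes were among the largest rises in tumours of fatty liver, and a gene was followed through the array row that carries its symbol alone. Of the 10 genes, 9 had such a row, among 22180 genes with a row of their own, and Gzme was present only on a row it shares with Gzmd. All 9 lay above the detection limit used here, the median of the whole table at 4.93 on the log2 scale, on at least 3 arrays, as did 13286 genes in all. Because a gene that is high in fatty liver passes that limit through those arrays, passing it is no evidence of a difference.

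Tumour cells grew in a healthy or a fatty liver, and the animals were given vehicle or Anti-VEGF, an antiangiogenic treatment, with 3 arrays in each of the 4 groups. The healthy liver groups were vehicle and Anti-VEGF, the fatty liver groups were likewise vehicle and Anti-VEGF, and all tumours were of the same kind, named only as mouse CRC. The sources used here do not give the strain, the age, the tumour line, the way the liver was made fatty or the agent behind the name Anti-VEGF. RNA of the whole tumour tissue was measured, so fewer cells of a type and less RNA per cell cannot be told apart in any value below. The labels call the arrays of a group biological replicates, but several arrays were so alike, as given below, that they may be repeats of 1 sample. If so, n is below 3 in those groups, and the SEs, intervals and p-values of the main fit are too small.

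Cytotoxic lymphocytes, chiefly natural killer (NK) cells and CD8 T cells, store granzymes and perforin in secretory granules. On contact with a target cell the granules are released, perforin opens the target's membrane, and the granzymes, serine proteases of differing specificity, enter and cut proteins that lead to cell death. Granzymes are made as inactive precursors that lose a short leader peptide to cathepsins in the granule, and cells protect themselves with serpins that trap the active protease. In the mouse, Gzmb lies at the end of a cluster on chromosome 14 with Gzmc, Gzmf, Gzmn, Gzmg, Gzmd and Gzme and, beyond Gzme, the cathepsin G gene Ctsg and mast cell chymases. Gzma and Gzmk are neighbours on chromosome 13, Prf1 is on chromosome 10 and Ctsw on chromosome 19, by the RefSeq gene table.

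The promoters of the cluster are shown because the genes they belong to varied together across the arrays. RefSeq promoter sequences (build GRCm38.p6, 250 bases before to 50 after each gene's start) were held for 9 of the 10 members, all but Ctsw. Within the cluster, Gzmc, Gzmd, Gzme, Gzmf and Gzmg are near copies of each other: the promoters of Gzmd and Gzme had 280 identical bases of 298 aligned (94.0%), those of Gzmf and Gzmg were 90.4% identical, and Gzmc was 84.8% to 86.2% identical to the others. All 5 hold, at the same place in the alignment, the cyclic AMP response element (CRE) TGACGTCA or a form of it with 1 changed base, shown in capitals in these stretches of 100 bases, written 5′ to 3′ on the gene's strand.
Gzmc (chr14:56234665-56234764, minus strand): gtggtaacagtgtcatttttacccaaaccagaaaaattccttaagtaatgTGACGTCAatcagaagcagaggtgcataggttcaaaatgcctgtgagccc
Gzmf (chr14:56211440-56211539, minus strand): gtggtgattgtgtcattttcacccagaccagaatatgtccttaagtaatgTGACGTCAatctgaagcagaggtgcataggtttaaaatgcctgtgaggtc
Gzmg (chr14:56159607-56159706, minus strand): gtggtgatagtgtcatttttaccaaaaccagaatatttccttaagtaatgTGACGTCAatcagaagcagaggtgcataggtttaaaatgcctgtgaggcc
Gzmd (chr14:56132605-56132704, minus strand): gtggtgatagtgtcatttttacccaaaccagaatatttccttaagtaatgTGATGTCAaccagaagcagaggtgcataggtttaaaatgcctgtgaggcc
Gzme (chr14:56120638-56120737, minus strand): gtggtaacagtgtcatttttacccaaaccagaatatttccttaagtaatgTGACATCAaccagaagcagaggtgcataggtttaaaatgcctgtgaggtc
The full CRE, which reads the same on both strands, was in the promoters of Gzmc, Gzmf and Gzmg, starting 57, 82 and 77 bases before the gene's start, and in 1.79% of all 32851 promoters of this length. Counted from 1 at the element's first base, Gzmd carries C4T and Gzme G5A. A match of this kind describes letters and is no evidence of a bound factor.

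The promoter of Gzmb, at the end of the cluster, does not belong to that set. Its best alignment with any of the 5 spanned 30 bases or fewer, and so did that of Gzmn, which lies between Gzmg and Gzmf. The Gzmb promoter is printed because Gzmb was high on a vehicle array of healthy liver where the other members were not, that of Prf1 because perforin is on another chromosome and yet followed the granzymes, and that of Gzmn because it was not detected. Capitals mark matches to TGTGGT, the RUNX core, on either strand (ACCACA on the opposite), to TGANTCA (AP-1), to TGACGT, the first 6 letters of the CRE (ACGTCA on the opposite strand), and to TTCNNNGAA (STAT).
Gzmb (chr14:56262285-56262584, minus strand): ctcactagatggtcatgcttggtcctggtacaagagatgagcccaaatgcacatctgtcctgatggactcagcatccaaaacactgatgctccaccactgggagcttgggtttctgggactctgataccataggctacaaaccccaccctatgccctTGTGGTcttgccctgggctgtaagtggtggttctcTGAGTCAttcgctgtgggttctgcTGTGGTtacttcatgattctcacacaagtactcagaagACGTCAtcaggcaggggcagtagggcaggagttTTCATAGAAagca
Prf1 (chr10:61297586-61297885, plus strand): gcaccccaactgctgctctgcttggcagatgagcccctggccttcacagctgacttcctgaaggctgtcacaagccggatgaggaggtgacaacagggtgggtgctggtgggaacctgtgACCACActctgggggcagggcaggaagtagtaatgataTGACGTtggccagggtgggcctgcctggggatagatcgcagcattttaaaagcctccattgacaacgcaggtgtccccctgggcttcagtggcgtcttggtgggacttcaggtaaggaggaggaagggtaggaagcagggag
Gzmn (chr14:56174550-56174849, minus strand): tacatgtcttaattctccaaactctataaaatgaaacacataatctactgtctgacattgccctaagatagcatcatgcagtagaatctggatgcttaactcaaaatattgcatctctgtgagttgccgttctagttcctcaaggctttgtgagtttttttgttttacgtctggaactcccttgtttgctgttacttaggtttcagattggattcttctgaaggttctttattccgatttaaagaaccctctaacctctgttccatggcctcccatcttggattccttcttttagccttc
Searched on both strands, the RUNX core was in 8 of the 9 member promoters, Gzmk being the exception, and in 16.8% of all promoters. The 6-letter TGACGT, which lies inside the full CRE, was in 5 members (Gzmb, Gzmc, Gzmf, Gzmg and Prf1) and in 7.51% of promoters; the match in Gzmb lies after the gene's start. AP-1 and STAT matches were found in Gzmb alone among the members and in 7.81% and 8.30% of promoters, and GGTGTGA (T-box) in Gzmk alone and in 3.98%. The STAT match in Gzmb also lies after the gene's start. Since Gzmc, Gzmd, Gzme, Gzmf and Gzmg are near copies, their shared letters are not independent of each other.

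**Figure D1:**
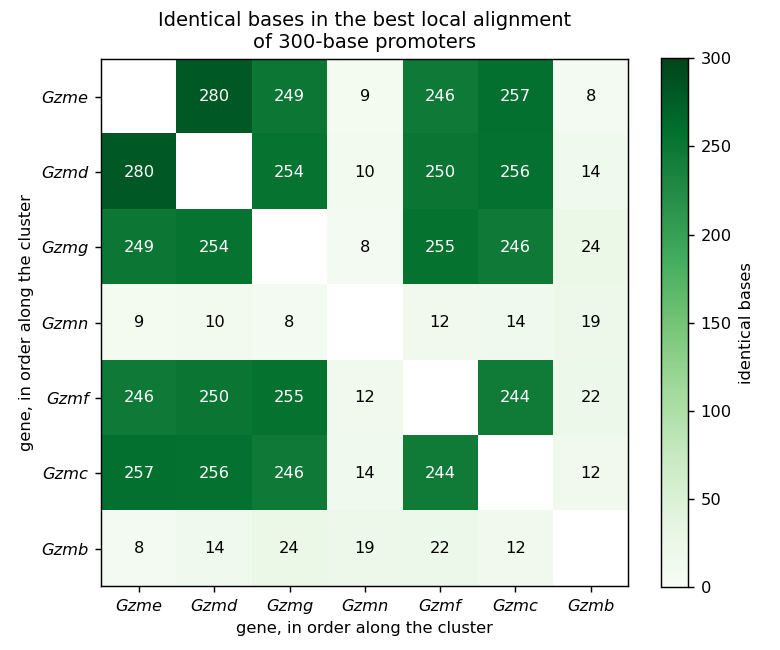
Number of identical bases in the best local alignment of each pair of 300-base promoters in the granzyme cluster, genes in order along chromosome 14 (colour scale from 0 to 300 bases). Gzme, Gzmd, Gzmg, Gzmf and Gzmc share 244 to 280 bases with each other, while Gzmn and Gzmb share 24 or fewer with any of them.

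Some arrays stood apart from their groups, and this touches what follows. Vehicle arrays 1 and 3 differed from each other by a standard deviation (SD) of 0.163 over all genes tested in both livers. The 3 Anti-VEGF arrays of healthy liver differed by 0.148 to 0.156, against 0.391 to 0.636 for the other pairs within groups. Xist, an RNA made from the silent X chromosome of females, stood at 8.10 to 10.58 on vehicle arrays 1 and 3 of both livers and at 3.89 to 4.32 on the other 8 arrays. Whether the near-identical arrays come from separate animals was not tested, so counts between livers are also given with each such set averaged to 1 sample. The pairs that differed most held vehicle array 2 of healthy liver (0.634 and 0.636) or Anti-VEGF array 3 of fatty liver (0.616 and 0.487). Of 11 colorectal epithelium markers, Epcam, Krt19, Krt20, Vil1, Cdh17 and Cdx1 were below the limit on every array. Krt8 and Krt18 were above it on every array, and in all 4 or 5 of the 11 were above it on each array. Of 10 hepatocyte markers, 4 were above it on each array, while the hepatocyte product Alb was below it throughout.

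Perforin and the granzymes were low in tumours of healthy liver and high in those of fatty liver under vehicle. The members were selected for rises in fatty liver, so the size of the rise is given without a test under either treatment. Under vehicle, the 9 members were higher in fatty liver by 0.81 (Gzmk) to 4.52 (Gzmc) on the log2 scale, with a median of 3.51, against -0.12 over all genes tested. For each of the 9, every fatty liver vehicle array lay above every healthy liver vehicle array, as held for 23.6% of all genes tested. Under Anti-VEGF the median was 2.29 (all genes -0.13), and 6 of the 9 were free of overlap between the livers (background 21.9%). The Anti-VEGF median rested on single arrays of fatty liver, at 3.41 without Anti-VEGF array 3 and 1.61 without array 1. The comparisons under vehicle and under Anti-VEGF share no array, but the selection used both, so neither is independent evidence of a rise. At the lower end of the range were Gzmk and Gzmg, and next above them came Gzmb at 2.81. That place rested on vehicle array 2 of healthy liver, without which Gzmb was at 3.88, above Prf1, Gzmf and Gzma. Gzmm, a granzyme that was no member, differed by 0.017.

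Prf1, which forms the pore, stood at 6.28, 6.21 and 5.89 on the healthy liver vehicle arrays and at 5.68, 6.02 and 6.26 on the Anti-VEGF arrays of healthy liver. In fatty liver it was 9.26, 9.39 and 9.16 under vehicle and 9.46, 8.59 and 6.62 with Anti-VEGF. Every fatty liver array was above every healthy liver array, with Anti-VEGF array 3 only just so. The rise under vehicle was 3.14 (SE 0.54), or 8.83-fold, and under Anti-VEGF 2.23 (SE 0.54), or 3.04 without Anti-VEGF array 3 of fatty liver and 1.61 without array 1. Perforin was detected on all 12 arrays.

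Gzma is the granzyme of tryptase specificity that is abundant in NK cells. It was 3.37, 3.39 and 3.70 in healthy liver under vehicle and 3.02, 2.80 and 3.29 with Anti-VEGF, below the limit on all 6 arrays. In fatty liver it was 7.17, 7.50 and 7.22 under vehicle, and 7.48, 5.71 and 3.36 with Anti-VEGF. Array 3 of the last group was thus at the level of healthy liver, and array 2 between the livers. Because its healthy liver values are below the limit, the difference of 3.81 under vehicle may understate the change.

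Gzmk, the tryptase next to Gzma, varied least of the members. Its values were 4.73, 4.59 and 4.75 in healthy liver under vehicle and 4.89, 4.58 and 4.62 with Anti-VEGF, all below the limit. The fatty liver vehicle arrays gave 5.42, 5.82 and 5.24, and those of Anti-VEGF 6.20, 5.37 and 4.82. Its highest value in the study was therefore on an Anti-VEGF array, and Anti-VEGF array 3 of fatty liver fell within the range of healthy liver.

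Gzmb cuts after aspartate and activates caspases. It was 6.52, 9.85 and 6.79 in healthy liver under vehicle, 6.74, 7.02 and 7.13 under Anti-VEGF, 10.37, 10.77 and 10.46 in fatty liver under vehicle and 10.77, 9.99 and 6.83 with Anti-VEGF. It was above the limit on all 12 arrays. Vehicle array 2 of healthy liver was 3.20 above the mean of arrays 1 and 3 and close to fatty liver, and with it the SD of that group was 1.85 (n = 3), against 0.20 under Anti-VEGF and 0.21 in fatty liver under vehicle. Of the 9 members, only Gzmb was at least 3 above both other arrays there, as were 0.843% of all genes tested; the other 8 differed from that mean by -0.19 to 0.56.

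On that same array the mean of 8 mast cell and basophil markers (Cpa3, Tpsb2, Tpsab1, Kit, Ms4a2, Fcer1a, Mrgprb1 and Hdc) was 10.32, against 8.04 and 8.06 on arrays 1 and 3, and all 8 had their highest value of the 12 arrays there. Endothelial markers (8 of 9 highest there, mean 8.98 against 5.85 and 5.90) and fibroblast markers (7 of 8, mean 10.04 against 7.64 and 7.56) were high on it too. Mouse mast cells are known to make Gzmb as well as chymases. Of the 8 chymase and cathepsin G genes at the other end of the cluster, 6 were highest on this array, among them Mcpt4 at 11.75 against 10.05 and 10.18 and Ctsg at 7.92 against 4.85 and 4.53. Markers of other leukocytes were above arrays 1 and 3 by less: macrophages at a mean of 10.35 against 9.31 and 9.30, CD4 and regulatory T cells at 5.95 against 5.28 and 5.26, the T cell receptor complex at 5.85 against 5.28 and 5.22, and NK cells at 4.92 against 4.66 and 4.67. The part of any of these cells in the Gzmb value was not tested.

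Gzmc, Gzmf, Gzmg and Gzmd, with Gzme, form the middle of the cluster and exist as separate genes in rodents. Gzmc was 5.09, 4.83 and 4.94 in healthy liver under vehicle and 4.77, 4.70 and 4.62 with Anti-VEGF. In fatty liver it reached 9.30, 9.79 and 9.32 under vehicle and 9.76, 8.51 and 5.01 with Anti-VEGF. Gzmc thus sat at the limit in healthy liver and had the largest difference of the members under vehicle, 4.52 (SE 0.89).

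Gzmd was 4.51, 4.65 and 5.0 in healthy liver under vehicle and 3.44, 4.07 and 3.51 with Anti-VEGF. It was 8.78, 9.32 and 8.72 in fatty liver under vehicle and 9.41, 8.32 and 4.53 with Anti-VEGF. The values of the treated healthy livers were all below those of the untreated, and both near or below the limit. The row shared by Gzme and Gzmd ran alike, at 4.15, 4.38 and 4.10 and then 3.66, 3.74 and 4.06 in healthy liver, and at 7.44, 7.99 and 7.59 and then 8.21, 6.50 and 4.16 in fatty liver. That row cannot be assigned to either gene, and near-identical genes of this cluster may contribute to each other's rows.

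Gzmf was 3.56, 4.14 and 3.59 in healthy liver under vehicle and 3.29, 3.38 and 3.53 with Anti-VEGF, below the limit on all 6. It was 6.98, 7.95 and 6.89 in fatty liver under vehicle and 7.49, 6.86 and 4.03 with Anti-VEGF. Gzmf therefore passed the limit in fatty liver only, except on Anti-VEGF array 3. Gzmg moved less: it was 4.37, 4.24 and 4.41, then 4.25, 3.64 and 4.41 in healthy liver, and 5.33, 5.85 and 5.47, then 5.94, 4.65 and 4.03 in fatty liver. It was above the limit on the vehicle arrays of fatty liver and on Anti-VEGF array 1 alone. Gzmn, which lies between Gzmg and Gzmf, was below the limit on all 12 arrays, at 3.36 to 3.89, and was not tested.

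Ctsw, a cysteine protease of NK and CD8 T cells that belongs to another protease family than the granzymes, was 4.88, 5.30 and 5.28 in healthy liver under vehicle and 5.01, 5.03 and 5.37 with Anti-VEGF. In fatty liver it was 8.86, 9.54 and 8.73 under vehicle and 8.49, 8.18 and 5.61 with Anti-VEGF. It was the only member with all 3 Anti-VEGF arrays of fatty liver below all 3 vehicle arrays. Gzmm, whose gene lies on chromosome 10 like Prf1, stayed between 4.51 and 5.06 on all arrays. The Gzmm difference between livers was 0.017 under vehicle (SE 0.12, limma adjusted p = 0.922) and -0.15 under Anti-VEGF (adjusted p = 0.320).

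**Figure D2:**
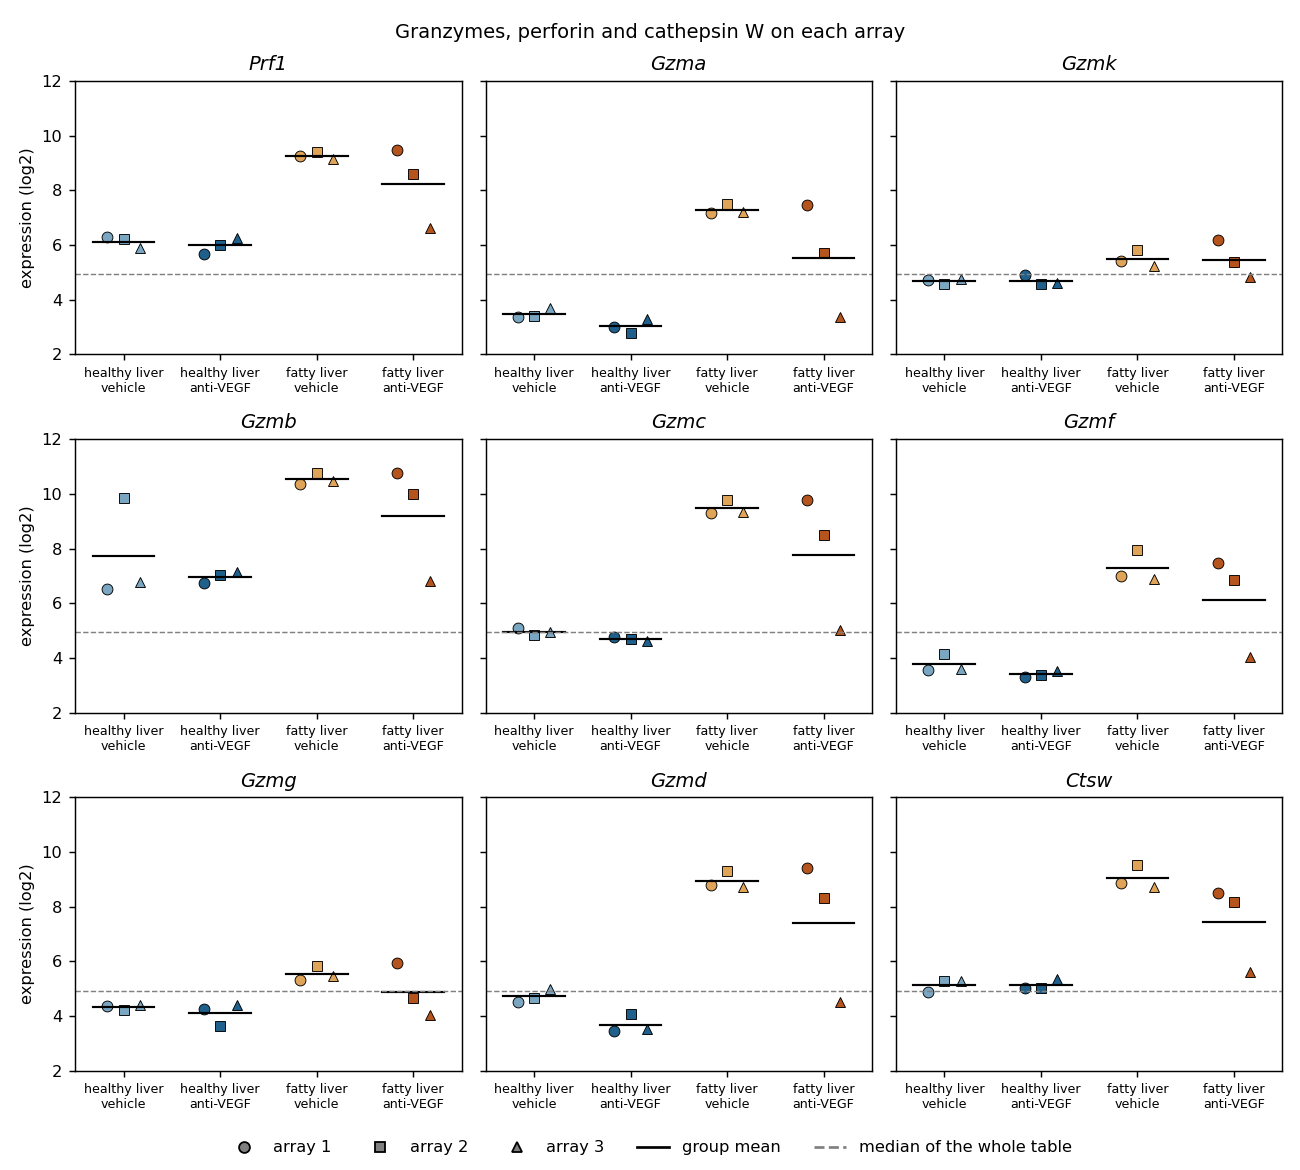
Deposited log2 expression of the 9 measured members on each of the 12 arrays, by liver and treatment; symbols give the array number, bars the group mean and the dashed line the limit of 4.93. In all 9 panels the fatty liver vehicle arrays lie above the healthy liver vehicle arrays and Anti-VEGF array 3 of fatty liver lies lowest of the 6 fatty liver arrays; Gzmb alone has a high vehicle array 2 in healthy liver.

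Within the Anti-VEGF group of fatty liver the 3 arrays spread far more than in the vehicle group, and they did so in the same order for every member. All 9 were highest on array 1, lower on array 2 and lowest on array 3, an order held by 15.7% of all genes tested. Against the mean of the fatty liver vehicle arrays, the median member was 0.23 higher on array 1, 0.68 lower on array 2 (-0.68) and 3.43 lower on array 3 (-3.43), where all genes had medians of -0.054, 0.016 and 0.067. Anti-VEGF array 3 was the lowest of the 6 fatty liver arrays for 9 of 9 members (22.2% of all genes). The median SD of the members was 1.84 in this group and 0.28 in the vehicle group, against 0.21 and 0.13 over all genes. Vehicle array 2 was the highest of its group for all 9 (40.9% of all genes).

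On Anti-VEGF array 3, Gzma, Gzmd, Gzmf, Gzmg and Gzmk were below the limit, so the size of their difference from the vehicle mean is bounded by it and is not ranked. Of the members above the limit there, Gzmc, at 5.01 only just so, differed by -4.47 and Prf1 by -2.65. Compared with the Anti-VEGF arrays of healthy liver, the median member on array 3 was 0.32 higher, and Gzmb, Gzmg and Gzmk lay within the values of those arrays. With the vehicle arrays of healthy liver included, Gzma, Gzmc, Gzmd and Gzmf also lay within the values of healthy liver. Only Prf1 (6.62) and Ctsw (5.61) lay above all of them. Lymphocyte markers moved with the members on that array. The mean of 11 NK markers was 5.06 there against 6.70 to 7.28 on the other fatty liver arrays and 4.58 to 4.92 in healthy liver, and all 11 were lowest there of the fatty liver arrays. The 9 measured genes of the T cell receptor complex were likewise all lowest there, with a mean of 5.88 against 7.34 to 7.99.

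Other cell types did not all follow. Mast cell and basophil markers were lowest on Anti-VEGF array 3 of fatty liver for 8 of 8 genes, at a mean of 5.85, below all other arrays of the study (8.04 to 10.32). Macrophage markers were at 11.30 against 11.40 to 11.62 on the other fatty liver arrays and 9.10 to 10.35 in healthy liver, so by these markers the array stayed with fatty liver. The neutrophil marker mean was 5.30 against 6.38 to 9.13. The part of cell numbers in the low granzyme values of this array was not tested.

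**Figure D3:**
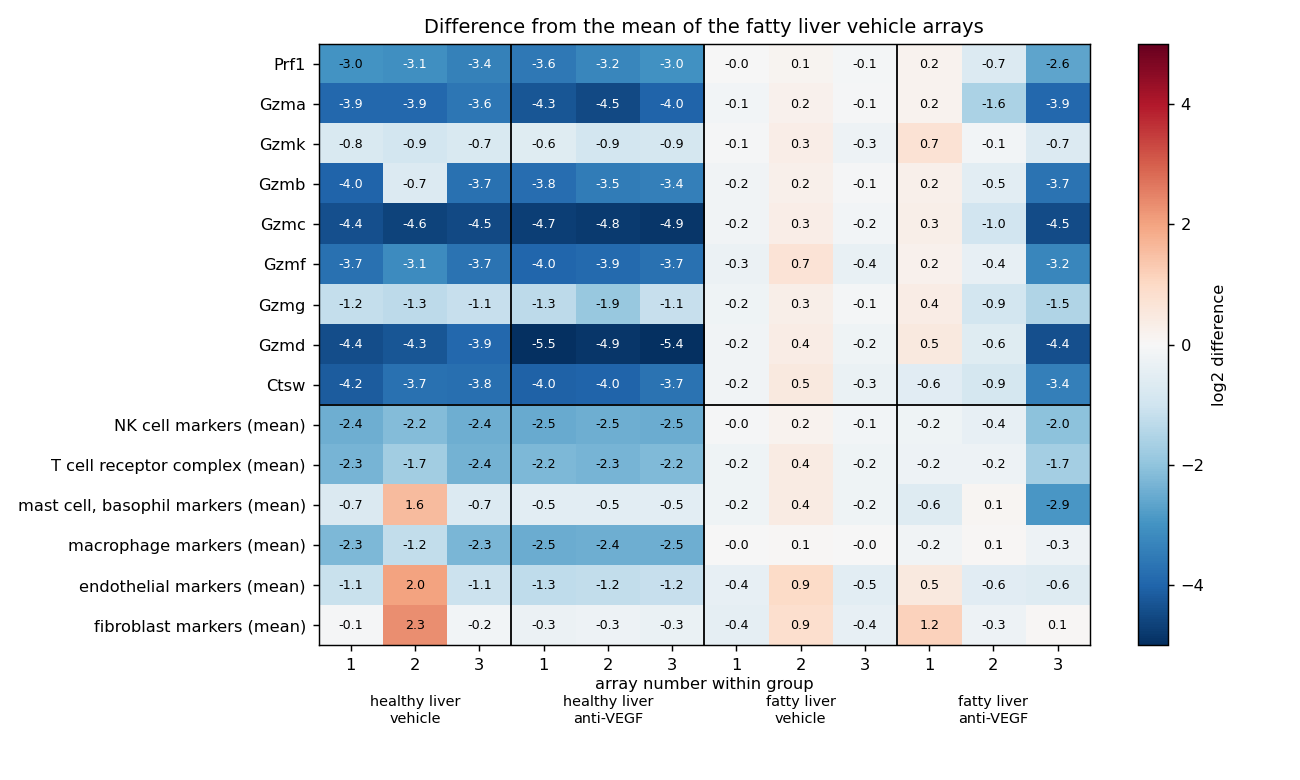
Log2 difference of each member and of the mean of each marker list from the mean of the 3 fatty liver vehicle arrays, for all 12 arrays (colour scale from -5 to 5, with values beyond it at its end colour, and values printed in the cells). Anti-VEGF array 3 of fatty liver is blue for the members, NK, T cell receptor and mast cell rows and near 0 for macrophages and fibroblasts; vehicle array 2 of healthy liver is red for mast cell, endothelial and fibroblast rows.

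The treatment comparisons ask whether granzymes and perforin differ between Anti-VEGF and vehicle within each liver. They were not used to select the members, though they share the arrays that were. In both livers Xist was unevenly spread over the treatments. It was at 3.89 to 4.32 on every Anti-VEGF array but at 8.10 to 10.58 on vehicle arrays 1 and 3. The treatment comparisons carry this difference between the animals or samples, and its part in them was not tested. No member passed an adjusted p of 0.05 (limma, Benjamini-Hochberg over 13286 genes) in healthy liver, in fatty liver or in the interaction of liver and treatment. Over all genes 0 (0%), 1 (0.00753%) and 0 (0%) passed, and 1118, 778 and 677 had an unadjusted p below 0.05. The gene that passed in fatty liver was the kallikrein Klk1b11 (-1.78, adjusted p = 0.0257), named after its value was seen.

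In healthy liver the differences ran from -1.05 (Gzmd) to 0.0082 (Gzmk), and 0 of the 9 members had an unadjusted p below 0.05. The Gzmd value had an SE of 0.94, a 95% interval of -3.13 to 1.03 and an adjusted p of 0.842. Gzma, Gzmc, Gzmd and Gzmf were lower on every Anti-VEGF array than on every vehicle array, as were 11.7% of all genes; the treated values of Gzma, Gzmc, Gzmd and Gzmf were all below the limit. Prf1 differed by -0.14 (interval -1.34 to 1.06). Gzmb differed by -0.76 (SE 1.01), and without vehicle array 2 of healthy liver by 0.31, in the opposite direction.

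In fatty liver the 9 differences were all below 0, with a median of -1.34 against 0.01 over all genes, and 2 had an unadjusted p below 0.05. Gzma differed by -1.78 (SE 0.75, interval -3.46 to -0.11, adjusted p = 0.795). Ctsw differed by -1.61 (SE 0.60, interval -2.95 to -0.28, adjusted p = 0.795) and was the only member whose groups did not overlap, as held for 4.99% of all genes in the lower direction. Prf1 was at -1.05 (interval -2.25 to 0.16), Gzmb at -1.34 (-3.57 to 0.89), Gzmc at -1.71 (-3.69 to 0.26) and Gzmk at -0.031 (-0.67 to 0.60).

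These differences rested on Anti-VEGF array 3. Without it Gzma was at -0.70, Ctsw at -0.71, Gzmc at -0.34, Prf1 at -0.24, Gzmb at -0.16, Gzmf at -0.095, Gzmd at -0.072 and Gzmg at -0.26, and Gzmk turned to 0.29. Without Anti-VEGF array 1 they were larger, with Gzma at -2.77 and Prf1 at -1.67. No member passed the adjusted threshold with any array left out. With arrays weighted by their quality in limma, Gzma passed in fatty liver (-1.51, adjusted p = 0.00951), 1 of 9 members where 13.9% of all genes tested passed; over all alternatives its adjusted p ran from 0.00951 to 1. The interaction was between -1.60 (Ctsw, SE 0.85, adjusted p = 0.979) and -0.039 (Gzmk), with 0 of 9 at an unadjusted p below 0.05, so no difference between the livers in the response to treatment was shown.

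**Figure D4:**
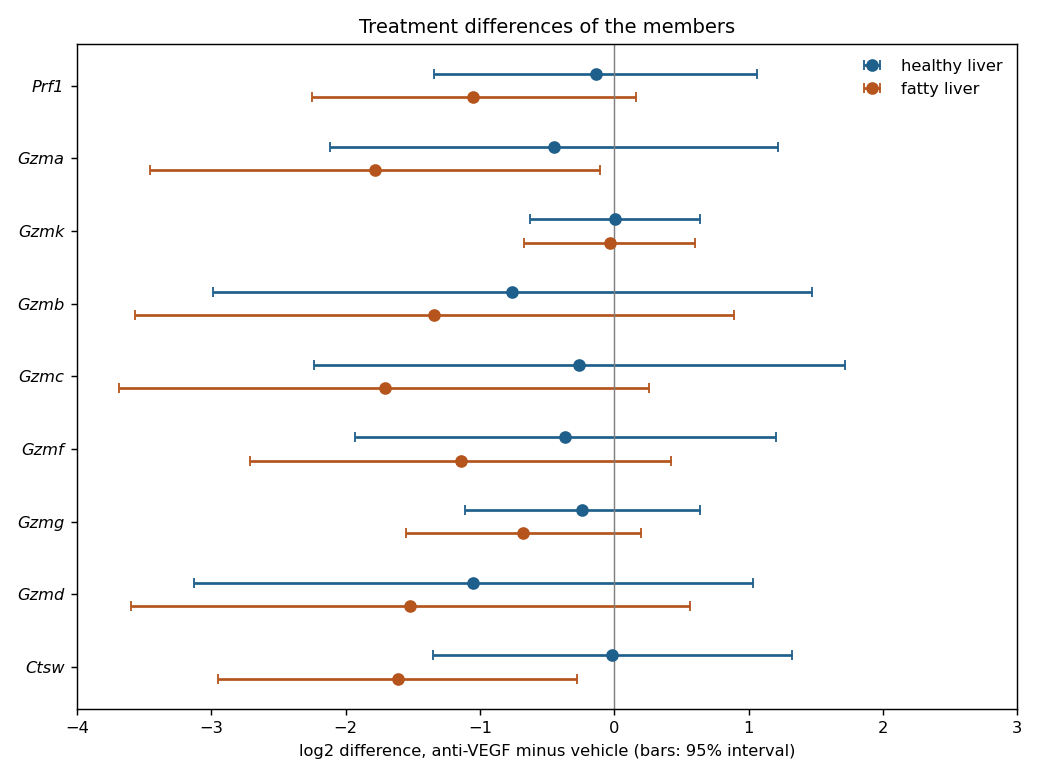
Log2 difference between Anti-VEGF and vehicle for the 9 measured members in healthy (blue) and fatty (orange) liver; points are limma estimates from 3 arrays per group and bars their 95% intervals. The intervals span 0 for all members in healthy liver and for all but Gzma and Ctsw in fatty liver, and no member passed after adjustment.

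Genes that act with granzymes were read from lists, 77 tested genes in all, none of them members. Between the livers under vehicle, 52 were higher and 3 lower in fatty liver at an adjusted p of 0.05, against 19.2% and 30.4% of all genes tested. Under Anti-VEGF 49 were higher and 5 lower (background 18.2% and 27.6%). When the near-identical arrays were averaged to 1 sample, 12 were higher and 1 lower under vehicle and 7 higher and 0 lower under Anti-VEGF. Of all 13286 genes, 721 and 510 then passed in either direction. Some of the genes, Fasl and Irf4 among them, passed the detection limit on fatty liver arrays only. The lists were also chosen with earlier results known, so the counts between livers are a description and no independent evidence of a rise. Between treatments 0 of the 77 passed in limma in either liver (7 in healthy and 11 in fatty liver at an unadjusted p below 0.05), while with array weights 7 passed in healthy and 6 in fatty liver, a lower share than the 12.5% and 13.9% of all genes tested. The errors below are SE and the adjusted p-values limma's.

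Of 11 genes that prepare the granule and its proteases, 6 were higher and 1 lower in fatty liver under vehicle, and 8 higher and 0 lower under Anti-VEGF (1 and 1 higher with near-identical arrays averaged). Ctsc, the dipeptidyl peptidase that activates granzymes, rose by 1.43 (SE 0.24, adjusted p = 0.00138) under vehicle and 1.83 with Anti-VEGF, and Ctsh, another activating cathepsin, by 2.10 and 2.60. Ctsc stayed at 12.11 on Anti-VEGF array 3 of fatty liver, where the granzymes were low. Nkg7, a granule membrane protein of cytotoxic cells, rose by 3.73 (SE 0.69, adjusted p = 0.00206) and stood at 6.53 on that array, near its healthy liver values of 5.87 to 6.65. The count under vehicle was 4 without vehicle array 1 of healthy liver. The gene that fell was Ctsl, a lysosomal cathepsin, by 0.21 (adjusted p = 0.0487), a call lost in 8 of the 12 fits that left out an array.

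Of 13 granule release genes 12 rose under vehicle, and 11 rose and 1 fell under Anti-VEGF (5 and 4 higher with near-identical arrays averaged). Stxbp2, which primes the fusion of granules, rose by 2.19 (SE 0.26) under vehicle and 2.69 with Anti-VEGF. The actin regulators Was (2.52 and 3.04), Coro1a (2.34 and 2.68) and Dock8 (2.33 and 3.09) rose as well, with adjusted p-values under vehicle of 0.000223 (Stxbp2) to 0.000351 (Dock8) and each call kept when near-identical arrays were averaged. These actin regulators are active in most blood cells and not in killer cells alone. The gene that fell was Vamp7, a protein of vesicle fusion, by 0.33 (adjusted p = 0.0202), a call lost without Anti-VEGF array 1 or 3 of healthy liver or array 1 or 2 of fatty liver.

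The genes that guard against granzymes rose too, 4 of 6 under vehicle, while 3 rose and 1 fell under Anti-VEGF. Serpinb9, the serpin that inhibits granzyme B, was 5.98, 6.78 and 6.14 in healthy liver and 8.58, 8.81 and 8.60 in fatty liver under vehicle, without overlap, a rise of 2.36 (SE 0.26). Serpinb6b, a serpin of the same clade, rose by 2.63 (SE 0.33) under vehicle and 1.89 with Anti-VEGF. On Anti-VEGF array 3 of fatty liver Serpinb9 was at 7.42 and Serpinb6b at 7.10, between the livers. Serpinb6a fell by 0.36 under Anti-VEGF, a call lost in 9 of the 12 fits that left out an array. With near-identical arrays averaged, 2 inhibitors passed under vehicle and 0 with Anti-VEGF.

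Among 12 granzyme substrates and death effectors, 5 rose and 1 fell under vehicle and 3 rose and 1 fell under Anti-VEGF. Bid, a protein of the mitochondrial route of death, rose by 1.59 (SE 0.22) and 1.60, and Casp8 by 0.83 and 0.92. The pore protein Gsdmd rose by 0.82 and 1.07, and Set, a target of granzyme A, fell by 0.44 and 0.47; under vehicle its adjusted p was 0.0618 without vehicle array 1 of healthy liver. Gsdme rose by 0.49 under vehicle, and without vehicle array 2 of fatty liver its adjusted p was 0.0543; the count was then 3. With near-identical arrays averaged, 1 gene of this list (Bid) passed under vehicle and 0 with Anti-VEGF.

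Killing by ligands showed both directions. Of 8 genes, 3 rose and 1 fell under vehicle and 4 rose and 1 fell under Anti-VEGF. Tnf rose by 2.61 (SE 0.50) and 2.71, and Ifng, the cytokine of activated NK and T cells, by 1.98 (SE 0.49) and 1.66. Fasl, the ligand of the death receptor Fas, was 3.93, 4.14 and 3.98 in healthy liver and 5.21, 6.05 and 5.24 in fatty liver under vehicle, a rise of 1.48 (SE 0.31). The receptor of Tnfsf10, Tnfrsf10b, fell by 1.18 (SE 0.15) and 0.77. The Ifng call under Anti-VEGF was lost without Anti-VEGF array 2 or 3 of healthy liver or array 1 or 2 of fatty liver. The count of rises was 5 under vehicle without Anti-VEGF array 1 of fatty liver and 2 under Anti-VEGF without array 3 of healthy liver, and with near-identical arrays averaged only Tnfrsf10b passed, under vehicle.

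Transcription factors of cytotoxic cells rose in 10 of 12 cases under vehicle, and 9 rose and 1 fell under Anti-VEGF; 0 passed in either comparison with near-identical arrays averaged. Stat4, which relays interleukin 12, rose by 3.47 (SE 0.54) and 3.19, and Runx3, a regulator of CD8 T and NK cells, by 2.59 (SE 0.40) and 2.46. Irf4 rose by 1.75 under vehicle. Hopx, a homeodomain protein without DNA binding, was the factor that fell, by 0.65 under Anti-VEGF (SE 0.16, adjusted p = 0.00895). Of 14 tested cytokines and receptors that drive cytotoxic cells, 12 rose under vehicle and 11 with Anti-VEGF and none fell (3 and 2 with near-identical arrays averaged). Il15, the survival factor of NK cells, rose by 2.37 (SE 0.30) and 2.39, Il18 by 2.16 and 2.35, Il21r by 2.38 and 2.49 and Ebi3, a subunit shared by interleukins 27 and 35, by 2.32 and 2.94.

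**Figure D5:**
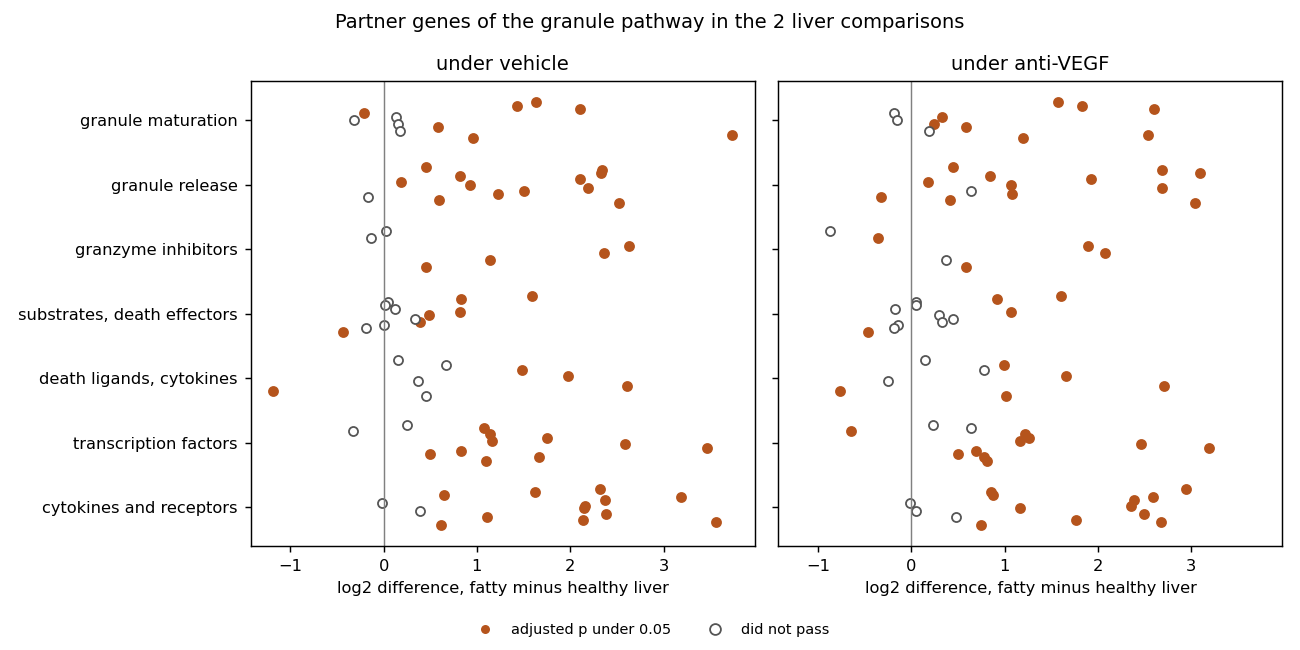
Log2 difference between fatty and healthy liver of each tested partner gene but Gzmm, by list, under vehicle (left) and Anti-VEGF (right). Filled points passed an adjusted p of 0.05 in limma. Points lie to the right of 0 for most genes of every list shown, with Tnfrsf10b at -1.18 the lowest point under vehicle.

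NK receptors and T cell receptor genes, the markers of the cells that carry granules, ran with the members. Of 8 tested NK markers 7 were higher in fatty liver under vehicle and 5 with Anti-VEGF (1 and 1 with near-identical arrays averaged). Under Anti-VEGF 3 were higher without Anti-VEGF array 1 or 2 of fatty liver. Over all genes tested 19.2% were higher under vehicle and 18.2% with Anti-VEGF, the shares beside which the marker counts of the main fit stand. The averaged counts stand beside 721 and 510 of 13286 genes that passed in either direction with near-identical arrays averaged. Of the 11 NK markers 2 to 5 were above the limit on healthy liver arrays and 4 to 10 on fatty liver arrays. Being tested is therefore no evidence of a rise. The activating NK receptor Ncr1 rose by 4.54 (SE 0.92, adjusted p = 0.00320) and Klrd1 by 4.20 (SE 0.73) under vehicle. All 9 tested genes of the T cell receptor complex were higher under vehicle and 7 with Anti-VEGF (2 and 0 averaged), among them Cd8a by 2.70 (SE 0.40) and Cd3g by 3.07 (SE 0.57) under vehicle. The rise was not limited to markers of cells that carry granules. All 10 macrophage markers were higher in fatty liver under vehicle and under Anti-VEGF (5 and 7 averaged), with median differences of 1.90 and 2.37. All 6 tested markers of CD4 and regulatory T cells were higher under vehicle (1 averaged), with a median of 1.84. Under Anti-VEGF 4 of these were higher (0 averaged), but 1 without Anti-VEGF array 1 or 2 of fatty liver and 2 without Anti-VEGF array 1 or 2 of healthy liver. Of 6 tested neutrophil markers 3 were higher under vehicle (1 averaged), with a median of 2.82. That count was 6 without Anti-VEGF array 1 or 3 of fatty liver. It was 2 without vehicle array 1 or 3 of healthy liver or vehicle array 2 of fatty liver. Under Anti-VEGF 3 were higher (2 averaged), and 2 to 6 with an array left out. Some lists did not rise under vehicle. Of 8 mast cell and basophil markers 0 were higher and 0 lower, and of 8 fibroblast markers 0 were higher and 2 lower. Of 8 tested endothelial markers 1 was higher and 1 lower, and of 4 tested B and plasma cell markers 2 were higher and 2 lower. Markers of several cell types, but not of all, thus rose between the livers, and those that rose did not move alike on every array. On Anti-VEGF array 3 of fatty liver the macrophage mean stayed at 11.30, while the NK mean was 5.06. RNA of the whole tissue does not assign the granzymes to any of these cells, and their source was not tested.

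The members followed each other closely over the 12 arrays, which share the separation of the livers. The Pearson correlation of each with the mean of the others, given as a description over 12 arrays, was 0.994 for Gzmf, 0.993 for Gzmc, 0.988 for Gzma and Prf1, 0.986 for Gzmd and 0.984 for Ctsw. It was lower for Gzmg (0.915), Gzmk (0.901) and Gzmb (0.895). Gzmb correlated at 0.54 with the mast cell marker mean, against 0.10 to 0.267 for the other members. Both Gzmb and that mean were high on the same vehicle array of healthy liver, and the part of that array in the value was not tested. Endothelial and fibroblast marker means were high on that array too, but their correlations with the members were not calculated. The value therefore does not single out mast cells, and the source of Gzmb was not tested.

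Among tested genes outside the set, those most like the mean profile of the members over the 12 arrays were Nkg7 (r = 0.996), Mctp2 (0.995), Ifitm6 (0.995), Il2rb (0.994), Cd24a (0.993), Rhof (0.992), Sh2d2a (0.991), Nfil3 (0.990), Xcl1 (0.989) and Ddt (0.988). Nkg7 and Il2rb, the receptor chain shared by interleukins 2 and 15, are genes of cytotoxic cells, and Xcl1 is a chemokine they secrete. Most like Prf1 were Mctp2, Il2rb and Nkg7, all at 0.991, and most like Gzma were Mctp2 (0.989), Nkg7 (0.985) and Atp1b1 (0.984). Gzmb had other neighbours: Il2ra (0.986), the interleukin 2 receptor alpha chain, Socs2 (0.983) and Penk (0.982). These were also high on vehicle array 2 of healthy liver, at 8.42, 7.12 and 7.70 against group means, that array included, of 7.38, 5.11 and 6.39.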

How the data were processed

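RNA of mouse tumours was measured on 12 Affymetrix whole-transcript arrays, 3 per group; the labels call them biological replicates, but near-identical arrays may be repeats of 1 sample, and p-values would then be too small. The values analysed, as deposited by the authors, are on a log2 scale, with a column for each array. Per the submitters' processing notes, Affymetrix Expression Console was used, with no version named; the sources used here do not give the normalization, centring or build, and the scale was inferred from the spread of values. Column medians ran from 4.88 to 4.99.

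Rows were named from the platform annotation: 23521 rows carry 1 symbol, 1814 several and 16010 none. Where a gene had several rows (1082 genes), that of the highest 12-array mean was taken. Genes above the median of the table (4.93) on at least 3 arrays were tested. The 12 arrays were fitted together in limma 3.58.1 under R 4.3.3 (lmFit, eBayes, 8 residual and 2.4 prior degrees of freedom), with Benjamini-Hochberg adjustment over 13286 genes and a threshold of 0.05. The fit was tested on simulated data in which all arrays were independent. That setting holds no near-identical arrays, so it does not show how the fit behaves with them. Arrays carry no counts, and their number limits the precision.

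The members and lists were chosen with earlier results of these data known, so members have no test between livers. The named genes are all members, up to 4 per list and comparison by smallest p, and the tested genes most correlated with the members (10 for their mean, 3 each for Gzmb, Prf1 and Gzma), without predicted, clone-named and segment-family symbols; genes named beyond this rule (Klk1b11, Ctsl, single marker genes) were chosen after their values were seen.

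Promoters were taken from RefSeq sequences, and alignments were local, made with Biopython 1.88. Deviations of same-numbered arrays from their group means correlated above 0.1 throughout for healthy against fatty liver under vehicle alone (0.536, 0.701 and 0.549); the labels do not say what a number marks. Alternatives were averaging near-identical arrays, leaving out arrays, the replicate block, quantile normalization, centring, other filters, only the groups compared, array weights, a trended robust fit and the mean of all rows.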

Additional observations from a re-analysis of the deposited data

How the results depend on the processing

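Members passing between treatments numbered 0 in each liver and in the interaction under all alternatives but array weights, with which 1 (Gzma) passed in fatty liver; leaving out each array gave 0 throughout. Partner genes between treatments were 0 under all alternatives but array weights, which gave 7 in healthy and 6 in fatty liver. Between livers, 55 partner genes passed under vehicle (48 to 58 with an array left out) and 54 under Anti-VEGF (43 to 62), but 13 and 7 with near-identical arrays averaged, which leaves fewer samples. With the replicate number as a block the counts were 55 and 54, and the block changed no count of member calls. The member median between livers was 3.51 under vehicle (3.17 to 3.76 with an array left out) and 2.29 under Anti-VEGF (1.61 to 3.41). Leaving out both arrays that stand apart, an alternative chosen after seeing the data, gave 3.41.

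Signs turned for values near 0 or resting on those arrays; the cause was not tested. In healthy liver, Gzmb ran from -1.35 to 0.31 with an array left out, Gzmk from -0.089 to 0.067, Prf1 from -0.28 to 0.015 and Ctsw from -0.15 to 0.058. In fatty liver Gzmk ran from -0.40 to 0.29. In the interaction the ranges were -1.65 to 0.60 for Gzmb, -1.47 to 0.98 for Gzmd, -1.46 to 0.27 for Gzmf and -0.41 to 0.28 for Gzmk. Array weights turned Gzmb (0.21), Gzmk (-0.036) and Ctsw (0.057) in healthy liver, Gzmk (0.082) in fatty liver, and Gzmd (0.50), Gzmf (0.05) and Gzmk (0.12) in the interaction. Leaving out both arrays gave Gzmb 0.31, Gzmk -0.043 and Ctsw 0.058 in healthy liver, Gzmk 0.29 in fatty liver, and Gzmd 1.01, Gzmf 0.087, Gzmg 0.031 and Gzmk 0.34 in the interaction. Quantile normalization gave -0.0067 and centring -0.0054 for Gzmk in healthy liver. Of all genes, 6595 passed between livers under vehicle and 721 with near-identical arrays averaged, and under Anti-VEGF 6084 and 510. Array weights called 1661 genes between treatments in healthy and 1848 in fatty liver, against 0 and 1. Gzmg and Gzmk have no value with the stricter filter, above 6 on at least 3 arrays, and the interaction has none with only the groups compared.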
